A study of Drosophila melanogaster with 4 samples.

Results

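The regions described here are long stretches of the fly genome in which no list of H3K27ac clusters had an entry. Acetylation of lysine 27 of histone H3 (H3K27ac) was profiled by ChIP-seq, the sequencing of DNA recovered with an antibody to the mark, in Drosophila melanogaster embryos of the strain Oregon-R, genotype wild type, at 14 to 16 h. The libraries were 2 H3K27ac ChIP libraries and 2 input libraries from the same strain, stage and genotype, all from whole embryos fixed with formaldehyde, so each list is an average over every tissue of the embryo. For each ChIP replicate there is 1 deposited list of enriched regions, here termed clusters, and a further combined list covers the replicate set. Gaps were chosen by cluster position: the clusters of all 3 lists on the 5 long chromosome arms were pooled, overlapping clusters were merged, and every stretch of at least 50000 bp between neighbouring merged intervals on an arm was kept. This left 375 gaps of 7174 stretches between merged intervals (5.23%). Positions are on FlyBase release 5, as deposited.

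H3K27ac is placed by the acetyltransferase Nejire (CBP) and marks active promoters and enhancers. The same lysine can instead be methylated by Polycomb repressive complex 2, and a histone tail carries only a single kind of mark on that residue at a time. In Drosophila, long chromosomal regions poor in active marks are known to hold genes that are silent in most tissues, and many such regions replicate late. A further class is heterochromatin next to the centromeres, which is rich in repeats. The lists hold positions and scores alone, so they do not tell these kinds of chromatin apart.

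The lists carry no read counts, so the depth of each library is unknown, and a stretch where reads could seldom be placed cannot be told apart from a stretch without acetylation. No list for the input libraries was analysed here. Whether the replicates are separate embryo collections is not stated by the labels, so their spread may be technical. Because cluster positions chose the gaps, their number, length and placement, and the clusters at their edges, are given as descriptions without a test.

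The gaps were few among all stretches but took up much of the sequence. Together they spanned 36.2 Mb, which was 30.5% of the 119 Mb of the long arms and 42.8% of all bases between merged intervals. Stretches under 50000 bp had a median length of 3329 bp. The gaps had a median length of 80.0 kb, with quartiles of 60.8 and 113.6 kb, and ranged from 50345 bp to 339.8 kb. Of the 375 gaps, 85 were 50 to 60 kb long, 78 were 60 to 75 kb, 77 were 75 to 100 kb and 88 were 100 to 150 kb. A further 28 were 150 to 200 kb, 16 were 200 to 300 kb and 3 were longer than 300 kb. The 135 gaps of at least 100 kb held 54.5% of all gap bases, and the 47 of at least 150 kb held 25.8%.

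The limit of 50000 bp fell within a run of closely similar lengths. The shortest gaps kept were 50345 bp on X from 88211 to 138555, 50533 bp on 2R from 15817699 to 15868231 and 50541 bp on 3L from 21764295 to 21814835. The longest stretches left out were 49981 bp on 3L from 7257541 to 7307521, 49840 bp on 2R from 16664405 to 16714244 and 49826 bp on 2L from 10148015 to 10197840. Stretches between an arm end and the first or last merged interval have a cluster on only a single side and were not counted. The longest of these was 54721 bp, at the start of 3L, and the next was 42310 bp, at the end of 2L.

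Each gap lay inside a stretch without a cluster in each replicate list, which by construction was as long or longer. In replicate 1 the enclosing stretch exceeded the gap by a median of 3084 bp and in replicate 2 by 2236 bp. For 190 gaps (50.7%) the stretch was within 10% of the gap's length in both replicates. This held for 114 of the 240 gaps under 100 kb (47.5%) and for 76 of the 135 longer gaps (56.3%). A tolerance of 10% allows more bases at a longer gap, so these shares do not compare how closely the edges were placed. In 76 gaps a stretch was over 1.5 times as long in either replicate, and in 25 of these it was so in both. Gap edges in the replicates lay a median of 309 bp apart. Of the 750 edges, 486 (64.8%) were placed within 1000 bp of each other by the replicates, and 127 (16.9%) lay over 10000 bp apart. Across the 375 gaps the enclosing lengths had a Spearman rho of 0.78 between replicates. The points share libraries and, where gaps lie side by side, the same stretch, and both lengths are bounded below by the gap itself.

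**Figure D1:**
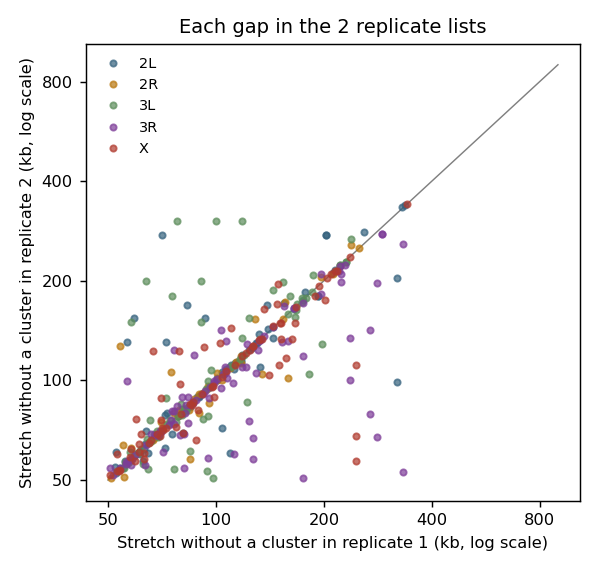
Length of the stretch without a cluster that encloses each of the 375 gaps in replicate 1 (horizontal axis, kb, log scale) and in replicate 2 (vertical axis, kb, log scale), coloured by arm; the line marks equal lengths. Most gaps lie along the line, and the 76 gaps with a stretch over 1.5 times the gap in either replicate include those that lie far from it, where a cluster of only a single replicate divides the stretch.

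The combined list set most of the boundaries. It placed 533 of the 750 edges (71.1%), while replicate 1 placed 95 and replicate 2 placed 125, with ties counted for each list. Taken alone, replicate 1 had 454 gaps and replicate 2 had 429 (mean 442 ± 17.7, SD, n = 2), and the combined list alone had 380. Of these, 359 of replicate 1 and 359 of replicate 2 still held a gap after pooling, and 15 and 14 of them held 2 or more. The other 95 of replicate 1 and 70 of replicate 2 kept no stretch of at least 50000 bp after pooling.

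The combined clusters that divided the replicate stretches were narrow and of low score, but so were combined clusters missing from a replicate elsewhere. By construction, a cluster inside a gap of a replicate list overlaps no cluster of that list. The score is the authors' own value for each region in its list. Its scale is not stated in the sources used here, and it serves only to describe and rank. Gaps of replicate 1 alone held 512 combined clusters (median width 1542 bp, median score 0.33), of which 287 (56.1%) overlapped no cluster of either replicate. Gaps of replicate 2 alone held 405 (median width 1484 bp, median score 0.33), of which 258 (63.7%) overlapped neither replicate. Among combined clusters not at the edge of a pooled gap, those overlapping neither replicate had medians of 1309 bp and 0.34. Those overlapping a single replicate had 1870 bp and 0.34. Over all combined clusters of the long arms, 1194 (16.5%) overlapped neither replicate and 1323 (18.3%) a single one. The share with neither among clusters missing from a given list was not computed, so these counts do not set the gaps apart. With the replicate lists pooled and the combined list set aside there were 407 gaps over 34.0% of the long arms. Inside 164 of these lay 212 combined clusters found in neither replicate list, with a median width of 1288 bp. Those were 17.8% of the 1194 combined clusters of the long arms without a replicate cluster.

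Gaps took up a smaller share of 2R than of any other long arm. The pooled share was 34.6% of 2L (78 gaps), 34.1% of X (76 gaps), 32.5% of 3R (95 gaps), 28.7% of 3L (79 gaps) and 21.4% of 2R (47 gaps). Gaps per Mb were 2.22 on 2R against 3.22 on 3L, 3.39 on X, 3.39 on 2L and 3.40 on 3R. They were also a smaller part of the stretches on 2R, 3.46%, against 5.36 to 5.90% on the other arms. The median gap was 79.9 kb on 2R, 77.7 kb on 3L, 79.2 kb on 3R, 82.6 kb on X and 88.9 kb on 2L, so 2R did not have the shortest gaps when pooled. In replicate 1 alone 2R had 71 gaps, 3.36 per Mb, with a median of 78.2 kb, the lowest of the arms in both, and in replicate 2 it had 60, 2.84 per Mb, with a median of 83.4 kb. The other arms had 3.75 to 4.26 per Mb with medians of 80.9 to 86.6 kb in replicate 1, and 3.54 to 3.87 per Mb with medians of 77.9 to 89.9 kb in replicate 2. Of the 47 gaps of at least 150 kb, 12 lay on 3R, 10 each on 3L and X, 9 on 2L and 6 on 2R.

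Each replicate list alone gave 2R the lowest share. The share of 2R was 30.7% in replicate 1 and 27.5% in replicate 2, a mean of 29.1 ± 2.31%. That of 3L was 36.7 and 35.5% (36.1 ± 0.805%), that of 3R 41.3 and 38.7% (40.0 ± 1.85%), that of X 40.7 and 40.8% (40.7 ± 0.0320%) and that of 2L 43.4 and 41.5% (42.5 ± 1.36%; SD, n = 2). The values of 2R did not overlap those of any other arm. The difference between 2L and 2R was 12.7 percentage points in replicate 1 and 14.0 in replicate 2, a mean of 13.4 ± 0.948. The values of 3L lay above those of 2R by 5.94 points in replicate 1 and 8.07 in replicate 2, and below those of X by 4.63 ± 0.837 points. X and 3R could not be ordered, with X minus 3R at -0.56 in replicate 1 and 2.10 in replicate 2. With 2 libraries no exact test can reach 0.05, so these differences are set only beside the spread of the replicates.

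**Figure D2:**
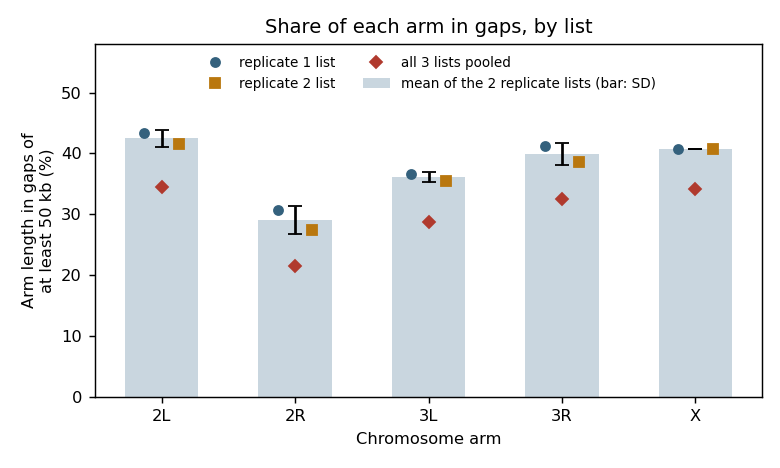
Share of each long arm in gaps of at least 50 kb (vertical axis, percent) for the replicate 1 list, the replicate 2 list and all 3 lists pooled; columns and error bars give the mean and SD of the 2 replicate lists. The values of 2R, 30.7 and 27.5%, lie below those of every other arm, and pooling lowers the share on each arm.

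Along 4 of the 5 arms, gaps took up more of the 2 Mb at the centromere end than of the arm's middle. On X the last 2 Mb before the centromere were in gaps to 77.4% in replicate 1 and 76.1% in replicate 2 (76.8 ± 0.927%), against 39.0 ± 0.121% in the middle. The same comparison gave 63.5 ± 7.63 against 36.0 ± 1.96% on 3L. It gave 39.6 ± 4.43 against 27.6 ± 2.24% on 2R, while 2L had the smallest step, 46.8 ± 0.954 against 42.8 ± 1.52%. The ranges of the replicates did not overlap on any of these arms. On 3R the order was the other way, with 19.7 ± 1.94% at the centromere end and 42.5 ± 1.45% in the middle (SD, n = 2). In all, 44 of the 375 gaps had their midpoint in the 2 Mb at a centromere end, and 23 in the 2 Mb at a telomere end.

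Telomere ends varied from arm to arm. The first 2 Mb of 3L held a single gap and were in gaps to 10.1 ± 2.66%, below the middle of that arm. X, at 20.4 ± 0.175%, and 2L, at 35.2 ± 2.20%, also lay below their middle in both replicates. The telomere end of 3R lay below its middle too, but with replicates far apart, at 34.4 and 25.2%. On 2R the replicates differed in direction, with 38.5% in replicate 1 above the middle of 29.1%, and 24.9% in replicate 2 below the middle of 26.0%.

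With each arm divided into 5 equal segments counted from the telomere, the richest segment was not the same on every arm. When pooled it was segment 5 on X and 3L, segment 4 on 2L and 3R, and segment 1 on 2R. On 2L it was segment 4, in gaps to 53.0% when pooled (57.3 ± 1.42% in the replicates), against 22.1% in segment 2. The whole of segment 5 of 2L, next to the centromere, was at 30.4% (36.7 ± 1.93%), below segments 1, 3 and 4, so the higher share there held for the last 2 Mb and not for the segment. On X it was segment 5, at 47.5% (55.5 ± 0.462%), with 25.1% next to the telomere. On 3L the pooled share went from 19.1% next to the telomere to 38.7% next to the centromere. On 3R the segments lay between 29.0 and 37.4%. The replicates differed there, with segment 1 the richest in replicate 1, at 46.9%, and segment 4 in replicate 2, at 43.6%. On 2R the pooled shares lay between 17.6 and 24.7%, with segment 5 at 23.6% (29.1 ± 1.15%) and segment 1 at 24.7% (31.4 ± 5.38%). Its most gap-rich segment was thus below the pooled arm-wide share of each other arm. Here too the replicates differed. Segment 1 was the richest of 2R in replicate 1, at 35.2%, but in replicate 2 it was at 27.6% and segment 2 was the richest, at 30.4%.

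**Figure D3:**
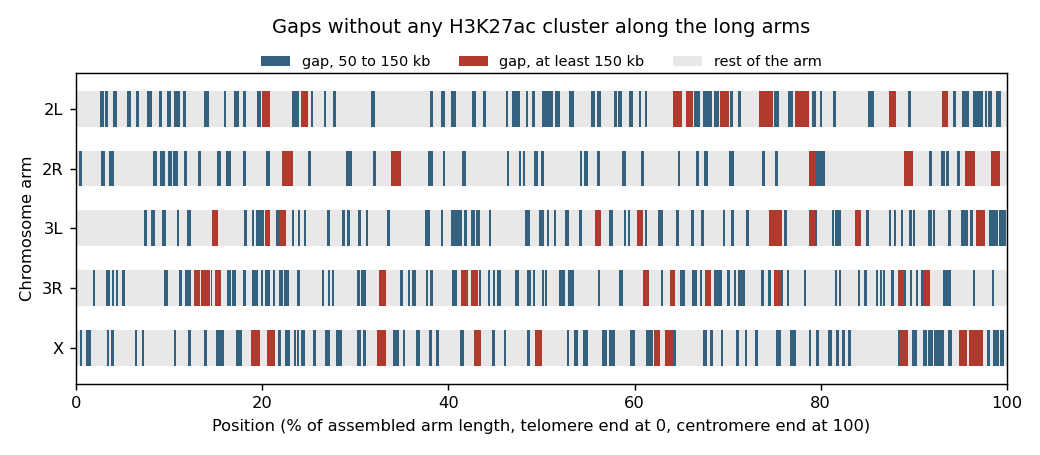
Gaps along the 5 long arms; the horizontal axis is position as percent of the assembled arm, with the telomere end at 0 and the centromere end at 100, and red marks gaps of at least 150 kb. Gaps take up more of the 2 Mb at the centromere end than of the middle on X, 3L, 2R and 2L. They also crowd in segment 4 of 5 on 2L, and 2R as a whole has the smallest share.

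Of the 117 full bins of 1 Mb, 11 were in gaps to more than 50% of their length when pooled. Of these, 4 each lay on 2L and 3R, 2 on X, 1 on 3L and none of the 21 bins of 2R. The median bin was at 28.4%, with quartiles of 20.5 and 39.4%. The most gap-rich bin of 2L was 15000001 to 16000000, at 75.6% pooled and 83.3 ± 5.60% in the replicates. That of X was 21000001 to 22000000, at 70.3% (74.4 ± 2.55%). Those of 3R, 8000001 to 9000000, and of 3L, 23000001 to 24000000, were at 60.1% (67.7 ± 6.27%) and 55.4% (65.8 ± 6.32%). The highest bin of 2R, 1 to 1000000, reached 43.4% (44.8 ± 1.98%; SD, n = 2). Only 2 bins had no gap sequence, 3L from 1 to 1000000 and 2R from 3000001 to 4000000. The latter is part of the longest run between neighbouring gaps on any arm, 1.79 Mb on 2R from 2346600 to 4136385, which held 161 combined clusters. The longest runs between neighbouring gaps of the other arms were 1.36 Mb on 2L from 7386066, 1.15 Mb on 3R from 25282479, 1.13 Mb on X from 18668465 and 0.923 Mb on 3L from 8277353. Runs at arm ends are not among these. On 3L the first gap began at 1803632, and the first 54721 bp of the arm, before its first merged interval, held no cluster either.

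The longest gap of all was on X from 21503727 to 21843487, at 339.8 kb. Its stretch measured 342.3 kb in each replicate, and a gap of 205.7 kb, from 21259323 to 21465051, lay just before it towards the telomere. The next on X were 234.7 kb from 7237865 to 7472597, at 236.0 kb in each replicate, and 214.2 kb from 4219879 to 4434041, at 214.3 ± 0.0530 kb. All 3 differed between the replicates by far less than 1 kb. X also had gaps of 203.5 kb from 4598857, 192.8 kb from 19859203, 190.3 kb from 14178427, 179.4 kb from 9582021, 161.6 kb from 11055325 and 156.9 kb from 13910345. The replicates differed most for the last, at 201.3 kb in replicate 1, 175.0 kb in replicate 2 and 183.0 kb in the combined list.

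On 2L the 2 longest gaps had nearly the same length. The gap from 17782457 to 18113397 was 330.9 kb long, with 331.3 kb in replicate 1 and 335.0 kb in replicate 2. That from 16889941 to 17220611 was 330.7 kb, with 336.2 and 338.1 kb. The third of 2L, from 14745465 to 14972855, was 227.4 kb, with 258.8 and 281.1 kb. These 3 and the gaps of 214.9 kb from 15915325 and 170.5 kb from 15076059 had their midpoints between 64.6 and 78.0% of the arm's length from the telomere. The other gaps of at least 150 kb on 2L were 203.6 kb from 4593385, 165.4 kb from 20098967, 164.9 kb from 5559019 and 154.6 kb from 21397862. The gap from 4593385 was 203.8 kb in replicate 2 and 203.6 kb in the combined list, but 320.1 kb in replicate 1.

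Of the 3 longest gaps of 2R, 2 had limits that the replicates placed almost alike. The longest, 250.7 kb from 16216569 to 16467235, was 251.0 ± 0.135 kb in the replicates (SD, n = 2), and the third, 221.6 kb from 13760137 to 13981755, was 222.0 ± 0.0856 kb. The second, 237.9 kb from 718651 to 956577, measured 238.0 kb in replicate 1 and 256.5 kb in replicate 2. Of the remaining gaps of at least 150 kb, 195.8 kb from 160497, 209.8 kb from 2136791 and 150.2 kb from 4335665, the one from 160497 lay next to the centromere end.

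On 3L the longest gap lay near the centromere end, 238.1 kb from 23741537 to 23979634, with 238.3 kb in replicate 1 and 267.7 kb in replicate 2. The next were 186.8 kb from 18266185 to 18452961, with 186.8 and 207.9 kb, and 183.0 kb from 13670651 to 13853612, with 185.6 and 185.1 kb. The longest gap of 3L was shorter than that of any other long arm. Its other gaps of at least 150 kb started at 5361817 (176.7 kb), 3581193 (173.5 kb), 14785170 (163.6 kb), 18455027 (158.4 kb), 19334387 (153.7 kb), 20533927 (152.9 kb) and 4968985 (151.5 kb). In the last, both replicates agreed on a longer stretch, of 231.1 and 227.9 kb, which combined clusters divided.

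On 3R the longest gap, 258.2 kb from 23891215 to 24149389, measured 333.0 kb in replicate 1 and 258.4 kb in replicate 2. The next were 222.7 kb from 15854655 to 16077397, with 229.5 and 222.8 kb, and 213.6 kb from 16152106 to 16365672, with 220.0 and 214.7 kb. These 3 were longer in replicate 1 than in replicate 2. Further gaps of at least 150 kb were 209.4 kb from 18614345, 196.1 kb from 8860199, 195.1 kb from 6784659, 188.1 kb from 3076189 and 177.5 kb from 10730041. The remaining ones were 173.3 kb from 24186261, 169.5 kb from 23573028, 161.0 kb from 2308401 and 152.5 kb from 9948931. The gap from 2308401 lay in stretches of 290.3 and 277.1 kb in the replicates and was set by combined clusters. Across all arms, 29 of the 47 gaps of at least 150 kb had a stretch within 10% of their length in both replicates, and 3 had a stretch over 1.5 times as long in either.

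Many gaps had another gap close by. The 370 pairs of neighbouring gaps on an arm were separated by a median of 132 kb, with quartiles of 51.1 and 298.6 kb and a maximum of 1790 kb. The median was 105.6 kb on 3R, 107.5 kb on 2L, 135.5 kb on X, 146.2 kb on 3L and 271.5 kb on 2R. Taking runs of gaps with less than 50000 bp between neighbours as groups, 159 gaps (42.4%) fell into 67 groups, of which 50 had 2 gaps, 12 had 3, 2 had 4 and 3 had 5. The groups held 42.8% of gap bases, and spanned a median of 234.7 kb. On 3R 50 of 95 gaps were in groups (52.6%), on 2L 38 of 78 (48.7%), on 3L 34 of 79 (43.0%), on X 26 of 76 (34.2%) and on 2R 11 of 47 (23.4%). An arm with more gaps per Mb has more close neighbours for that reason alone, and the part of this in the order of the arms was not tested.

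**Figure D4:**
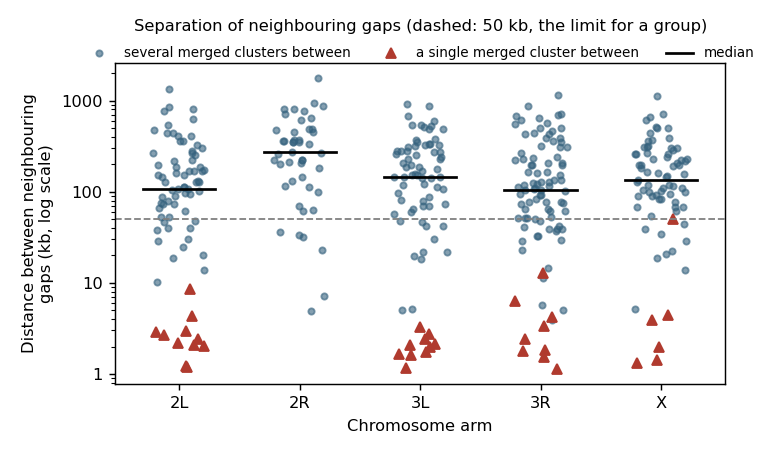
Distance between neighbouring gaps (vertical axis, kb, log scale) for the 370 pairs on the 5 long arms; triangles are pairs with a single merged cluster between them, the black line is the median of the arm and the dashed line is the 50 kb limit for a group. Pairs with a single merged cluster lie below 13 kb except on X at 49.7 kb, and 2R has no such pair and the highest median.

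The 3 groups with the most gaps all lay in segment 5, nearest the centromere. That of X ran from 20397073 to 20897929, where 5 gaps made up 90.8% of 500.9 kb and the 7 combined clusters between them had a median score of 0.39 and a highest score of 0.57. That of 3L ran from 24067743 to 24526436, with 5 gaps over 89.4% of 458.7 kb and 5 combined clusters of median score 0.40. Of these 5, a single cluster overlapped both replicates. The group of 2L, from 22181633 to 22642164, differed in its clusters. Its 5 gaps made up 85.5% of 460.5 kb, and all 10 combined clusters between them overlapped both replicates, with a median score of 0.71 and a highest score of 1.57.

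In 36 pairs a single merged interval was all that lay between the gaps. These isolated islands were on 2L (11), 3L (10), 3R (9) and X (6), and 2R had none. Each island held 1 combined cluster. These had a median score of 0.42 and were 2121 bp wide at the median, the scores running from 0.26 to 1.83. Of the 36 islands, 17 (47.2%) overlapped clusters of both replicates, 13 (36.1%) of a single replicate and 6 (16.7%) of neither. Over all combined clusters of the long arms these shares were 65.1, 18.3 and 16.5%, so the share with neither was alike. The islands named here were chosen after their values were seen. On 3L the island from 18452962 to 18455026, which overlapped both replicates, was 2064 bp wide with a score of 0.41 and parted gaps of 186.8 and 158.4 kb. On 2L that from 15906766 to 15915324 was 8558 bp wide with a score of 1.01, and parted gaps of 139.4 and 214.9 kb. The widest island was the domain of 49.7 kb on X from 6859702 to 6909366, with a score of 1.83, between gaps of 85.5 and 68.3 kb.

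The clusters at the gap edges were narrower and of lower score than the rest of the combined list. They numbered 707, or 9.80% of the 7215 combined clusters of the long arms, and a further 7 edges had a replicate cluster without a combined cluster. Their median width was 2480 bp, with quartiles of 1714 and 4329 bp, against 2962 bp (1888 and 5374.5 bp) for the other 6508. Their median score was 0.44, with quartiles of 0.33 and 0.79, against 0.52 (0.36 and 0.85). Clusters of less than 2000 bp were 38.6% of those at edges and 28.9% of the others. At the upper end the sets were closer, with 15.3 against 18.1% above a score of 1 and 2.12 against 2.32% at least 20000 bp wide.

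Fewer of the clusters at edges were found in both replicates. Of the 707, 409 (57.9%) overlapped clusters of both, against 65.1% of all combined clusters of the long arms, 160 (22.6%) overlapped a single replicate and 138 (19.5%) neither. For the 92 clusters next to gaps of at least 150 kb the share found in both was 47.8%, and their median width was 1977 bp. For the 317 next to gaps under 75 kb these values were 58.4% and 2340 bp. Across gaps, Spearman's rho between gap length and mean border width was 0.03, over points that are not independent. Within the class found in both replicates, the medians at edges were 3894 bp and 0.69, and those of the other clusters 4322 bp and 0.73. The differences were smaller in the other classes. For a single replicate the medians were 1841 bp and 0.331 at edges against 1870 bp and 0.341. For neither replicate they were 1234 bp and 0.333 against 1309 bp and 0.335. The lower score at edges was seen on 2L (0.43 against 0.49), 2R (0.46 against 0.53), 3L (0.40 against 0.53) and 3R (0.41 against 0.49). On X the medians were alike, at 0.57 for both sets, while the width was 2642 against 3100 bp.

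The replicate lists gave the same direction when each was used alone for its own gaps and its own clusters. In replicate 1 the median score was 0.64 for the 847 clusters at edges and 0.70 for the other 5165, and in replicate 2 it was 0.72 for 808 and 0.75 for 5331. The difference, edge minus other, was -0.05 in replicate 1 and -0.03 in replicate 2, a mean of -0.04 ± 0.02, and for width it was -372 ± 3.18 bp (SD, n = 2). These are small beside the spread among clusters. Clusters of one list are not independent, and the gaps were found from the same clusters, so no test is given.

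The difference was largest for the cluster nearest the gap. Counted outward from a gap edge, the first combined cluster had medians of 2480 bp and 0.44, the second 2700 bp and 0.50, and the third 2887 bp and 0.52. The medians over all combined clusters of the long arms were 2900 bp and 0.51. The fourth to sixth clusters had medians of 2815 to 2900 bp and 0.48 to 0.51. The share overlapping both replicates was 62.3% for the second and 65.5% for the third.

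**Figure D5:**
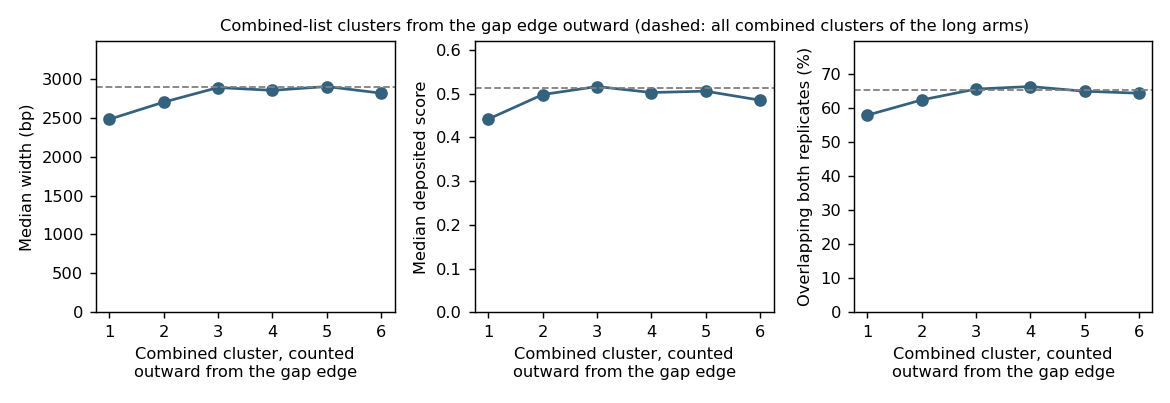
Median width (bp), median deposited score and share overlapping both replicates (percent) of combined clusters by their order outward from a gap edge, with dashed lines for all combined clusters of the long arms. The first cluster lies below the dashed line in all panels, at 2480 bp, 0.44 and 57.9%, and the third is close to it, at 2887 bp, 0.52 and 65.5%.

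Between 5 and 75 kb from a gap edge, cluster cover lay between that of the whole long arms and that of the sequence outside gaps. Neither is a like measure. The long-arm value includes the gaps themselves, which hold no cluster by definition. The flanks leave out the gap they border but include parts of other gaps. Between 5 and 10 kb from the edge, clusters covered 28.0% in replicate 1 and 28.9% in replicate 2 (28.5 ± 0.664%), and between 20 and 25 kb 27.4 ± 1.09%. The long arms as a whole were covered at 23.1 ± 0.586%, and outside the gaps at 32.6% in replicate 1 and 33.8% in replicate 2. In each step of 5 kb between 5 and 75 kb the replicate mean lay between the long-arm mean and the values outside gaps, and between 75 and 100 kb it lay below the long-arm mean in 4 of 5 steps. Between 95 and 100 kb the value was 22.4 ± 0.447% (SD, n = 2), and there 30.5% of the flank lay in other gaps, against 10.8% between 5 and 10 kb.

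A low score on one side of a gap went with either a low or a high score on the other. Of the 368 gaps with a combined cluster at each edge, 113 had both scores under the median of the long arms, 62 had both at or above it and 193 had one on each side. The median of the lower score was 0.36 and that of the higher 0.69. Across these gaps Spearman's rho between left and right scores was -0.02, and that between gap length and mean border score 0.05. Neighbouring gaps can share a cluster, so the points are not independent. Clusters on the telomere side had a median score of 0.43 and those on the centromere side of 0.45. At 120 gaps (32.6%) both clusters were found in both replicates, and at 11 both were found in neither. Taken singly, 57.9% of the bordering clusters were found in both replicates and 19.5% in neither. Whether the counts of pairs differ from what these shares imply was not tested.

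A few strong or wide clusters stood directly at a gap. The highest score, 3.04, belonged to a cluster of 1000 bp on X from 14177426 to 14178426, which borders the gap of 190.3 kb, and 2.87 was shared by clusters of 1000 bp on 2L from 22808756 and on X from 5375220. None of these 3 overlapped a replicate cluster. The next were found in both replicates. On X from 6740772 to 6774228 a domain of 33.5 kb with a score of 2.55 had 2.45 in replicate 1 and 2.70 in replicate 2. Also on X, from 7225020 to 7237864, a cluster of 12.8 kb with a score of 2.39, replicates 2.34 and 2.65, stood at the edge of the gap of 234.7 kb.

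The 5 widest clusters at gap edges all overlapped clusters of both replicates, though not always a single one. Both the widest, of 49.7 kb, which is the island named above (49.0 ± 0.640 kb in the replicates), and the fourth, of 33.5 kb, lay on X and bordered a gap of 85.5 kb between them. The others were 40.0 kb on 3R from 17405738 to 17445756 (score 1.30, 39.4 and 37.9 kb in the replicates), 35.0 kb on 2L from 17556228 to 17591266 (score 1.29, 34.9 ± 0.246 kb) and 31.8 kb on 3R from 10276410 to 10308204 (score 1.11, 29.8 ± 2.25 kb; SD, n = 2). The domain on 2L bordered a gap of 129.4 kb, and those on 3R gaps of 56.8 and 74.2 kb. Replicate 1 had 4 clusters over the domain of 49.7 kb and 3 over that of 31.8 kb, where replicate 2 had 1 each. Over the domain of 40.0 kb each replicate had 2 clusters. The replicate widths of these domains need not be those of a single cluster.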

How the data were processed

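The submitters' processing notes name the aligner Bowtie, version 0.12.7. The authors deposited 3 lists of enriched regions, called per ChIP library and for the replicate set, with positions on FlyBase release 5 per the file headers and a score per region. Of the region caller, its threshold, the joining of replicates and the scale of the score, none is given in the sources used here. A region of the combined list that is marked as depleted was left out.

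Groups follow the sample titles. Clusters were merged where they shared a base. A gap runs from the base after a merged interval to the base before the next, and cluster width is end minus start. The cluster bordering a gap is the combined cluster nearest to it within the merged interval at that edge. Arm lengths came from the file headers. The members, groups, lists and the rule for named regions (the 3 longest gaps of each arm, those of at least 150 kb, the 3 groups with most gaps, the 5 highest and 5 widest bordering clusters, the highest 1 Mb bin of each arm and the 3 stretches on each side of 50000 bp) were chosen with earlier results of these data known. The islands, segments, flanks and runs without a gap were added later. Gap finding was tested on simulated data. No annotation of release 5 was used here, so no gene is named. The software was matplotlib 3.10.9, pandas 2.3.3, NumPy 2.4.6 and SciPy 1.17.1 under Python 3.11.15.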

Additional observations from a re-analysis of the deposited data

How the results depend on the processing

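No result had a test, so a value is set beside the SD of the 2 settings that found gaps from a single replicate list. A value other than a count is said to have moved when it differs from the reported one by at least that SD. This SD does not measure the spread of the pooled value. For the median width of bordering clusters it was only 2.83 bp, so even a shift from 2480 to 2470 bp counts as moved. The number of gaps stayed within 1.5 times the reported 375 except for a minimum of 75000 bp (212 gaps). The share of the long arms in gaps, 30.5%, moved to 35.1 and 22.1% with a minimum of 40000 and 75000 bp, 34.0% with the replicate lists only, 33.9% without combined clusters found in neither replicate and 49.2% with clusters above the median score of their list. The share of gaps in groups, 42.4%, moved in that order to 54.7, 25.9, 45.2, 44.6 and 60.7%. It was 40.8% without the 2 Mb at each arm end, and 29.1 and 60.3% with a largest separation of 25000 and 100000 bp. The median width of bordering clusters, 2480 bp, moved in the same order to 2470, 2550, 2970, 2975 and 4824 bp, and to 2470 bp without arm ends. Their median score, 0.44, moved to 0.54 with the replicate lists only, 0.54 without combined clusters found in neither replicate and 0.83 above the median score. Gaps found from a single replicate list took up 37.0 to 38.8% of the long arms, and 50.0 to 51.7% of them were in groups. The combined clusters at the edges of those gaps had a median width of 3486 to 3490 bp and a score of 0.60 to 0.62. In the settings with replicate lists only, the combined list did not place gaps, but the bordering clusters were still taken from it. The cause of these shifts was not tested beyond the construction of the settings.

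Bordering clusters had the lower median score and width under each of these alternatives, with differences of -0.09 (minimum 40000 bp) to -0.02 (clusters above the median score) and of -562 to -326 bp. 2R had the lowest share in gaps throughout, from 16.0% (minimum 75000 bp) to 42.6% (clusters above the median score). 2L had the highest except without arm ends, where 3R led with 34.7 against 34.1%. No paired analysis was possible because the input libraries have no list analysed here. Depth being unknown, no detection limit can be given.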
